A study of Danio rerio with 4 samples.

Results

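The genes described here encode cytochrome P450 enzymes and the enzymes that act beside them: UDP-glucuronosyltransferases, sulfotransferases, glutathione S-transferases, aldehyde dehydrogenases, hydroxysteroid dehydrogenases and retinol dehydrogenases. They were chosen by the start of the gene name in the authors' deposited tables (cyp and a digit, ugt, sult, gst and a letter, aldh, hsd11b, hsd17b, hsd3b or rdh). The name rule itself used no measured value, but it was set with earlier results of these data known. The tables also list only genes with a posterior probability of difference of at least 0.99. The rule gave 21 of the 3020 distinct genes listed, with 8 of 1812 in the table of replicate 1, 17 of 1560 in the table of replicate 2, and 4 genes in both. The compared cells were centroacinar cells (CAC), which sit where the pancreatic ducts end inside the acini, and non-centroacinar cells (non-CAC), both sorted from the pancreas of adult AB strain zebrafish. Each replicate had 1 library per group, and each table sets the CAC library of that replicate against its non-CAC library. The labels name no transgene, treatment, age beyond adult, or sort marker, and do not say whether fish were pooled or whether the replicates came from separate fish, so the spread between replicates may be technical.

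Cytochrome P450 enzymes are membrane-bound haem proteins that use oxygen and electrons from NADPH to oxidise small molecules. Some families, such as CYP1 to CYP3, act mainly on foreign chemicals and fatty acids, and others, such as CYP11, CYP17 and CYP19, build steroid hormones in adrenal (in fish, interrenal) and gonadal cells. Conjugating enzymes then attach glucuronic acid, sulfate or glutathione, which makes the products easier to excrete, while retinol and aldehyde dehydrogenases make retinoic acid from vitamin A. In mouse, high aldehyde dehydrogenase activity has been used to isolate centroacinar cells.

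The deposited tables give a ratio for each gene and no level per library. The numerator of the ratio is not named in the headers, so a gene is described as lying below 1 or above 1, and no gene is called higher in CAC or in non-CAC. Only genes with a posterior probability of difference of at least 0.99 were listed, so nothing can be said of a gene that is missing from a table. The depth per library is unknown. A difference in the share of cells of a type and a difference in RNA per cell cannot be told apart in such libraries. For orientation, of the 23 ductal and centroacinar markers, all 15 listed in replicate 1 lay below 1, as did 16 of 17 in replicate 2. Of the 30 acinar markers, 24 were listed in replicate 2, all above 1, and 0 in replicate 1. Of 29201 annotated gene IDs, 3.52% were listed in replicate 2 and 4.36% in replicate 1. The acinar ratios of replicate 2 were 4.35 to 11.7, and replicate 1 lists no ratio between 0.0571 and 35.3. The absence of acinar markers from replicate 1 is therefore no measure of their ratio there.

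Across all listed genes, 33.4% lay below 1 and 66.6% above 1 in replicate 1, against 57.1% below and 42.9% above in replicate 2. The enzyme genes were split 3 below and 5 above 1 in replicate 1, and 12 below and 5 above 1 in replicate 2. These splits lie near the backgrounds of their tables and are not a result about the enzyme genes. The median ratio of the enzyme genes was 0.0359 below 1 and 111 above 1 in replicate 1, beside 0.0292 and 93.9 for all listed genes. In replicate 2 the median ratio was 0.168 below 1 and 5.27 above 1, beside 0.143 and 6.097 for all listed genes.

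**Figure D1:**
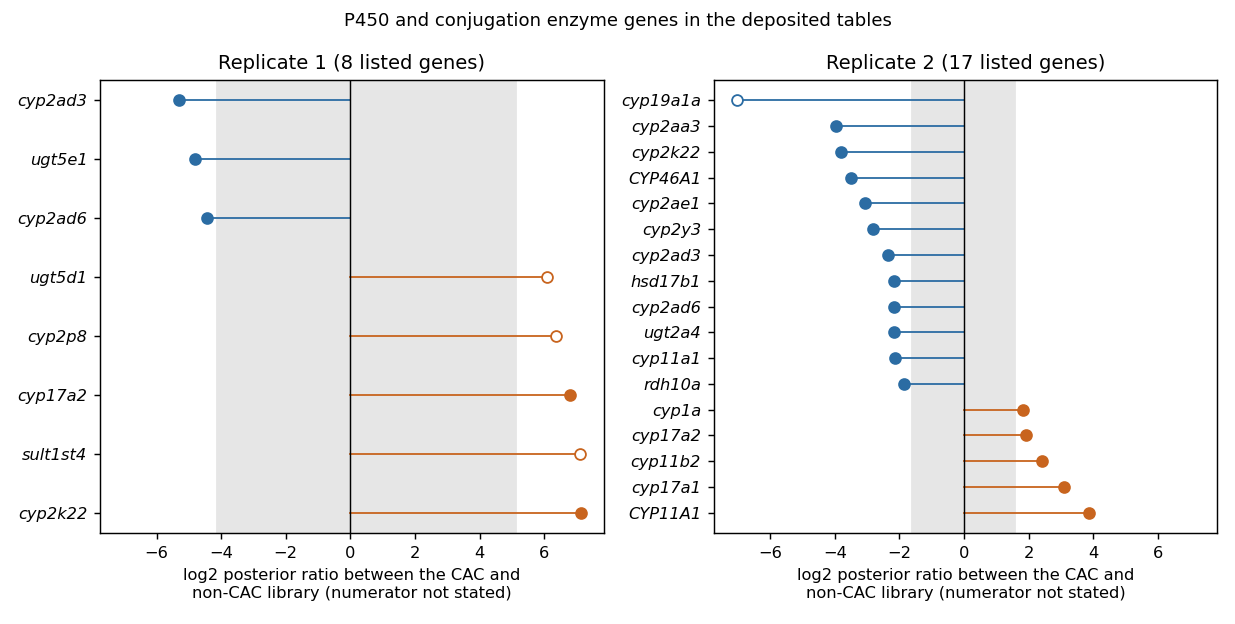
Log2 posterior ratio between the CAC and the non-CAC library for each listed enzyme gene, with replicate 1 on the left and replicate 2 on the right; the numerator is not stated. Each point is 1 gene, open points are floor genes (the deposited folds differ by over 10 times), and grey marks the span around 0 in which the table lists no gene. The CYP2 genes of replicate 2 all lie left of 0, and the steroid enzyme genes lie on both sides.

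The tables listed different spans of ratio. In the authors' deposited tables the ratios nearest to 1 were 0.0571 and 35.3 in replicate 1, and 0.325 and 2.98 in replicate 2. Only 1 of the 17 enzyme genes of replicate 2, cyp19a1a, had a ratio far enough from 1 to fall in the span that replicate 1 lists, whereas all 8 of replicate 1 fell in the span that replicate 2 lists. The absence of most replicate 2 genes from the table of replicate 1 is thus no measure of their ratio there.

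P450 genes made up 15 of the 21 listed genes. In a table of 29201 Ensembl gene IDs and names, 7.01% of all IDs were listed in either table, 4.36% in replicate 1 and 3.52% in replicate 2. Of the 202 IDs in it whose names fit the rule, 19 (9.41%) were listed in either table, 8 (3.96%) in replicate 1 and 15 (7.43%) in replicate 2. By family, 12 of 86 P450 genes, 3 of 30 glucuronosyltransferases, 1 of 19 sulfotransferases and 1 of 12 retinol dehydrogenases in that name table were listed, against 0 of 18 glutathione S-transferases and 0 of 21 aldehyde dehydrogenases. These counts are small, and no difference from the 7.01% was tested. The name table lacks the IDs of 3 of the 21 enzyme genes and adds 1 under another name. No glutathione S-transferase and no aldehyde dehydrogenase was listed in either table. This includes aldh1a2 and aldh1a3, which make retinoic acid, and gstp1, a glutathione S-transferase of many epithelia.

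The CYP2 family held 7 of the listed genes, all of them in subfamilies named in fish. In replicate 2, 6 were listed and all lay below 1. In replicate 1, 4 were listed, with cyp2ad3 and cyp2ad6 below 1 and cyp2k22 and cyp2p8 above 1. Of all listed genes of replicate 2, 57.1% lay below 1.

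Both genes that lay below 1 in each table belong to the CYP2AD subfamily, part of a cluster related to human CYP2J2, an epoxygenase of arachidonic acid. The gene cyp2ad3 (ENSDARG00000022650; Zv9 chromosome 20, 25578032 to 25581283) stood at 0.0251 in the authors' deposited table for replicate 1 and 0.194 in that of replicate 2, which is 39.9-fold and 5.15-fold from 1. Its neighbour cyp2ad6 (ENSDARG00000042956; chromosome 20, 25555538 to 25563246) had values of 0.0460 and 0.220 in replicates 1 and 2 (authors' deposited tables), or 21.7-fold and 4.54-fold from 1. Of the 352 genes in both tables, 61.4% lay below 1 in both and 32.7% above 1 in both. Of the 4 P450 genes among them, 2 lay below 1 in both, 1 lay above 1 in both and 1 changed side. For both CYP2AD genes the ratio lay farther from 1 in replicate 1, as the listed spans of the tables nearly fix. The count of 2 below 1 in both was 1 at a posterior probability of equal expression under 0.001 and 0 with each table centred on its median. Only called genes are listed, so that median follows their split around 1 and is no measure of an offset between libraries. The centred count therefore cannot decide how stable these genes are.

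The mean log2 ratio was -3.84 with a half-range of 1.48 for cyp2ad3, and -3.31 with a half-range of 1.13 for cyp2ad6. With the pairing held in the ratio, limma tested the mean within-pair log2 ratio over the 352 genes in both tables. The Benjamini-Hochberg adjusted p was 0.110 for cyp2ad3 and 0.147 for cyp2ad6, so neither was called. Each P450 gene in the fit got the same standard error, 2.19, so these p-values follow the mean and do not measure a gene's own spread. That error also takes in the unlike spans that the replicates list, so the missing call cannot decide how stable these genes are. In that fit 1.14% of the 352 genes were called with a mean below 1 and 0.00% with a mean above 1. At an unadjusted p under 0.05 the shares were 29.5% and 26.4%. On the uncorrected fold 0.00% were called in either direction, and 5.68% and 21.9% had an unadjusted p under 0.05 with a mean below and above 1. Every gene in this fit had been called by the authors in each table, and the p-values are conditional on that choice.

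The 2 CYP2AD genes and cyp2p8 lie in a row on chromosome 20 of Zv9. A gap of 14.8 kb separates cyp2ad6 from cyp2ad3, and one of 23.7 kb separates cyp2ad3 from cyp2p8 (25604997 to 25609609). In a RefSeq annotation of zebrafish (GRCz12tu) this stretch holds 7 genes in order, cyp2ad6, cyp2ad2, cyp2v1, cyp2ad3, cyp2p6, cyp2p7 and cyp2p8, all of the CYP2 family, of which the tables list 3. In the authors' deposited table for replicate 1, cyp2p8 was at 82.4, on the opposite side from its listed neighbours. It was a floor gene there, and the authors' deposited table put its uncorrected ratio at 11760, and it was not listed in replicate 2. These genes are close relatives. RSEM, the quantifier that the submitters' processing notes name, divides reads among similar transcripts. The separate values of neighbours may therefore be uncertain, which was not tested.

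The gene cyp2k22 (ENSDARG00000040433; chromosome 3, 8814256 to 8831106), of a fish subfamily, changed side between the replicates. The authors' deposited tables gave it a ratio of 141 in replicate 1 and 0.0707 in replicate 2, with uncorrected ratios of 293 and 0.0419. Exactly the same posterior ratio was held by 2 other listed genes in replicate 2. Its mean log2 ratio was 1.66 with a half-range of 5.48, so the replicates do not give it a direction. The limma fit gave an adjusted p of 0.464, which does not measure that spread. Of the 352 genes in both tables, 5.97% lay on opposite sides, and 5.40% lay above 1 in replicate 1 and below 1 in replicate 2 as cyp2k22 did. Among those 21 genes were 3 egg coat genes (zp2.2, zp2.5 and zp3a.2), named after their values were seen. All 3 were floor genes in replicate 1, so the size of their ratios there depends on the fold column. The remaining genes on opposite sides are not described here. All 4 listed egg coat genes lay above 1 in replicate 1, at 95.0 to 254, and all 14 listed in replicate 2 lay below 1, at 0.000886 to 0.271. Their part in the value of cyp2k22 was not tested.

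**Figure D2:**
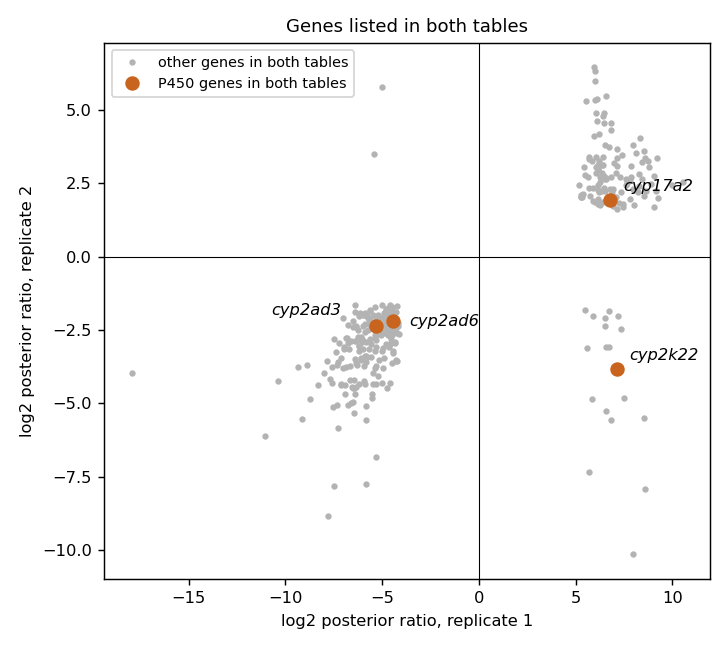
Log2 posterior ratio in replicate 1 (horizontal) against replicate 2 (vertical) for the 352 genes listed in both tables, with the 4 P450 genes labelled. The genes cyp2ad3 and cyp2ad6 lie below 0 on both axes, cyp17a2 lies above 0 on both, and cyp2k22 lies in the sparse lower right, where 5.40% of these genes fall.

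The remaining CYP2 genes were listed in replicate 2 alone, at ratios below 1. In the authors' deposited table for replicate 2, cyp2aa3 was at 0.0644 and cyp2ae1, also on chromosome 23, at 0.119. The posterior ratio of cyp2ae1 was shared by 1 other listed gene. The gene cyp2y3 (chromosome 15, 65143 to 71354) was at 0.142 in the same authors' deposited table. By distance from 1 they ranked 218th, 378th and 439th among the 890 genes below 1, so none was among the extreme genes of that table. A gap of 159 kb separates cyp2ae1 from cyp2aa3 in Zv9, and the RefSeq annotation places other genes between them. Of the oocyte and gonad list, 15 of 17 listed rows lay below 1 in replicate 2, as the 6 CYP2 genes did, and so did all 14 listed egg coat genes. So did 16 of 17 listed rows of the ductal and centroacinar list, and 57.1% of all listed genes. In replicate 1, all 15 listed ductal and centroacinar rows lay below 1, and all 4 listed egg coat genes above 1. There cyp2ad3 and cyp2ad6 lay below 1, and cyp2k22 and cyp2p8 above 1. The part of either cell type in the CYP2 ratios was not tested.

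Steroid-forming genes were listed almost entirely in replicate 2, where they lay on both sides of 1. The table of replicate 1 lists only ratios up to 0.0571 or from 35.3. Of the steroid rows of replicate 2, only cyp19a1a lay that far from 1, so the absence of the others from replicate 1 is no measure of them. In replicate 2, CYP11A1, cyp17a1, cyp11b2 and cyp17a2 lay above 1, and cyp11a1, cyp19a1a and hsd17b1 below 1. RefSeq holds 3 genes of the CYP11 family and 2 of the CYP17 family, and as many rows of each were listed.

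CYP11A1 cleaves the side chain of cholesterol, the first step of all steroid hormone synthesis, and zebrafish have a pair of closely similar genes for it. The tables name both alike. The row written CYP11A1 (ENSDARG00000092696, with no readable locus) stood at 14.6 in the authors' deposited table for replicate 2, and ranked 99th of 670 genes above 1. The row written cyp11a1 (ENSDARG00000002347; chromosome 25, 23043278 to 23058622) was on the other side, at 0.226 in the same authors' deposited table. Reads may be split between the copies, so the separate values may be uncertain, which was not tested.

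The gene cyp17a1 (ENSDARG00000033566; chromosome 13, 28824796 to 28834567) encodes 17-alpha-hydroxylase and 17,20-lyase, which lead to androgens. It stood at 8.49 in the authors' deposited table for replicate 2. Its posterior probability of equal expression, 1.74e-12 in the authors' deposited table, was the lowest among the enzyme genes above 1. The row cyp11b2 (ENSDARG00000042014; chromosome 16, 57904610 to 57917200; cyp11c1 in the name table), an 11-beta-hydroxylase of cortisol and 11-oxygenated androgen synthesis in fish, was at 5.27 in the authors' deposited table.

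The gene cyp17a2 (ENSDARG00000053966; chromosome 23, 45940021 to 45985841) was the only listed enzyme gene above 1 in both tables. It no longer counted there at 4-fold from 1 or more, at a posterior probability of equal expression under 0.001, or with each table centred on its median, each of which left 0 genes. Centring cannot decide here, because the median follows the split of the listed genes around 1. The cyp17a2 gene encodes a fish 17-alpha-hydroxylase without the lyase step, and serves cortisol and progestin synthesis. The authors' deposited tables gave ratios of 111 in replicate 1 and 3.81 in replicate 2, with uncorrected ratios of 232 and 3.89. Its mean log2 ratio was 4.37 with a half-range of 2.44. The limma fit of the within-pair ratios gave an adjusted p of 0.0858, with 0.0467 unadjusted, on the shared standard error of 2.19. In that fit 26.4% of the 352 genes had an unadjusted p under 0.05 with a mean above 1. Every gene in it had been called by the authors in each table, so the p of cyp17a2 is no independent support for its side.

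The gene cyp19a1a (ENSDARG00000041348; chromosome 18, 38057823 to 38073637) encodes the ovarian aromatase, which turns androgens into oestrogens. Its ratio of 0.00760 in the authors' deposited table for replicate 2 was farther from 1 than that of any other listed enzyme gene of that table, and ranked 30th among the 890 genes below 1. It was a floor gene, and the authors' deposited table put its uncorrected ratio at 9.08e-05, so the size of its ratio depends on the fold column. The gene hsd17b1 (ENSDARG00000027469; chromosome 3, 17769527 to 17776030), which reduces oestrone to oestradiol, was at 0.220 in the authors' deposited table for replicate 2.

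Of 17 genes of steroid and sterol supply, 1 was listed in replicate 1 and 2 in replicate 2, beside 4.36% and 3.52% of all IDs. The gene star, which brings cholesterol to the mitochondrial side-chain cleavage enzyme, was at 3.91 in the authors' deposited table for replicate 2. That is the side of the row CYP11A1 and of cyp17a1, and opposite to the row cyp11a1, at 0.226 in the authors' deposited table. A row with a clone name, si:rp71-68n21.10, is hsd3b1 in the name table. It encodes a 3-beta-hydroxysteroid dehydrogenase and was at 4.25 in the authors' deposited table for replicate 2. The steroid 5-alpha-reductase gene srd5a1 was below 1 at 0.0957 in the authors' deposited table for replicate 2. Its paralogue srd5a2b, a floor gene, stood at 86.5 in the authors' deposited table for replicate 1.

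Gonad markers were listed in the same table. The oocyte and gonad list held 37 names, and 17 rows with those names were listed in replicate 2, where 3.52% of all IDs were listed. The names zp2.6 and zp3.2 recurred among the rows, so rows and names do not count alike. Of the 17 rows, 15 lay below 1 and 2 above 1, with ratios from 0.000886 to 10.4. Of all listed genes of replicate 2, 57.1% lay below 1. Most of the gonad list rows below 1 were egg coat genes. Below 1, beside cyp19a1a, hsd17b1 and cyp11a1, were the egg coat genes and the oocyte gene zar1 at 0.0207 in the authors' deposited table. Also below 1 there were the inhibin gene inha at 0.241, sox9a at 0.168 and cldnd at 0.0347 in the authors' deposited table. Above 1 were CYP11A1, cyp17a1, cyp11b2 and cyp17a2. Beside them was insl3, a hormone gene of testicular Leydig cells, at 10.4 in the authors' deposited table. The gonadotropin receptor gene fshr was at 5.90 in the same authors' deposited table. In replicate 1 only 3 genes of that list were listed, all floor genes above 1. The part of gonadal cells in the steroid enzyme ratios was not tested. The acinar markers lay on the same side as cyp17a1 in replicate 2, at 4.35 to 11.7, and their part was not tested either.

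**Figure D3:**
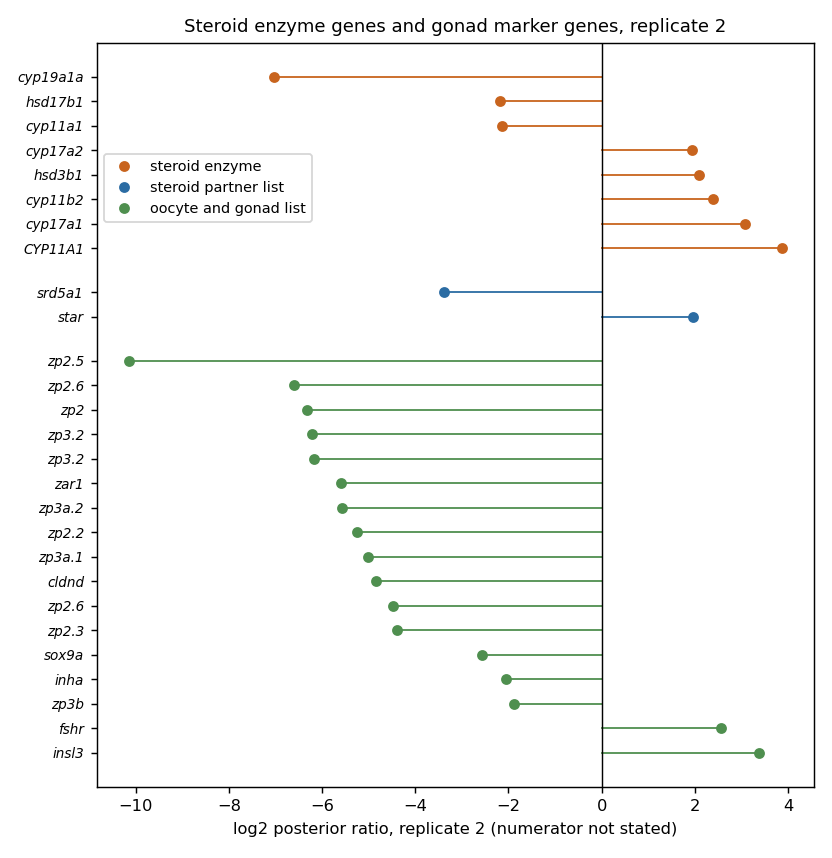
Log2 posterior ratio in replicate 2 for the steroid enzyme genes (top, with hsd3b1 taken from the name table), the listed members of the steroid partner list (middle) and those of the oocyte and gonad list (bottom); each point is 1 listed row. The genes CYP11A1, cyp17a1, cyp11b2, hsd3b1, cyp17a2, star, insl3 and fshr lie right of 0. The genes cyp11a1, cyp19a1a, hsd17b1, srd5a1, zar1, inha, sox9a, cldnd and the egg coat genes lie left of 0.

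Among the P450 genes with other roles, cyp1a (ENSDARG00000026039; chromosome 18, 4974675 to 4985566) is the classic target of the aryl hydrocarbon receptor, which senses dioxins and similar chemicals. Its ratio was 3.54 in replicate 2 by the authors' deposited table, close to the nearest listed ratio above 1, 2.98. The aryl hydrocarbon receptor repressor gene ahrrb was the only one of 22 receptor and regulator genes to be listed. It was a floor gene above 1 at 250 in the authors' deposited table for replicate 1, where 4.36% of all IDs were listed. CYP46A1, cholesterol 24-hydroxylase, which in mammals clears cholesterol from the brain, was at 0.0889 in the authors' deposited table for replicate 2, with a posterior probability of equal expression of 0.00940. RefSeq holds 5 zebrafish genes of the CYP46 family, so its reads may be shared among copies.

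For retinoid enzymes, rdh10a (ENSDARG00000058730; chromosome 24, 13155612 to 13176976) was listed in replicate 2 alone. It encodes the retinol dehydrogenase that makes retinaldehyde in embryos, and was at 0.276 in the authors' deposited table, a rank of 797 of 890 from the far end. Neither aldh1a2 nor aldh1a3 was listed, and the cyp26a1, cyp26b1 and cyp26c1 genes, whose products degrade retinoic acid, were not listed either. The share of all IDs listed was 4.36% in replicate 1 and 3.52% in replicate 2. Of 30 genes of retinoid handling, 1 was listed in replicate 1 and 2 in replicate 2. These were lrata, which esterifies retinol, at 96.3 in the authors' deposited table for replicate 1, the carotenoid-cleaving gene bco2a at 0.179 in the authors' deposited table for replicate 2, and the retinol-binding protein gene rbp7 at 106 in the same table. Of the 3, lrata and rbp7 were floor genes.

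Conjugation genes were few, and none was in both tables. In the authors' deposited table for replicate 1, the glucuronosyltransferase gene ugt5e1 (chromosome 8, 14573481 to 14577195) was at 0.0359 and ugt5d1 (chromosome 10, 26361123 to 26363478) at 68.3, so these 2 members of a fish family lay on opposite sides. The gene ugt2a4 (chromosome 5, 72956617 to 72977951) was at 0.223 in the authors' deposited table for replicate 2. The cytosolic sulfotransferase gene sult1st4 (chromosome 8, 55326811 to 55335487) was at 137 in the authors' deposited table for replicate 1. Both ugt5d1 and sult1st4 were floor genes, for which the authors' deposited table put the uncorrected ratio at 9714 and 19580, and 2 other listed genes had exactly the posterior ratio of ugt5d1.

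The lists of genes that supply and follow these enzymes are set beside the 4.36% and 3.52% of all IDs listed in replicates 1 and 2. No member of the electron transfer list of 11 genes, which holds the P450 reductase genes pora and porb, was listed. Of 34 other oxidising and conjugating enzymes only the alcohol dehydrogenase gene adh8a was, at 3.64 in the authors' deposited table for replicate 2. Of 17 glutathione supply genes only ggt5, a gamma-glutamyltransferase gene, was, at 68.8 as a floor gene in the authors' deposited table for replicate 1. Of 21 transporters, the bile acid carrier gene slc10a1 lay below 1 at 0.0479 and abcb5 above 1 at 35.7 in the authors' deposited table for replicate 1. Neither cyp3a65, an intestinal and hepatic P450 of zebrafish, nor hsd11b2, which inactivates cortisol, was listed.

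Liver and gut are tissues where many of these enzymes are made. Of 29 hepatocyte markers, 2 were listed in replicate 1 and 1 in replicate 2, beside 4.36% and 3.52% of all IDs. All lay above 1 in the authors' deposited tables, at 64.6 (fabp10b, a floor gene) and 72.0 in replicate 1 and 3.26 in replicate 2. The marker fabp10a was not among them. On the transporter list, the bile acid carrier gene slc10a1 lay below 1, at 0.0479 in the authors' deposited table for replicate 1. None of the 16 intestinal markers was listed, a list too short to set apart from the background share of listed genes. Of a list of 20 leukocyte markers, rows were above 1 in 7 of 7 cases in replicate 1 and in 7 of 8 in replicate 2. Of all listed genes, 66.6% and 42.9% lay above 1 in replicates 1 and 2. Floor genes made up 5 of these leukocyte rows in replicate 1 and 2 in replicate 2. Among the other lists, rows were listed for 2 and 1 of the endocrine list, 4 and 1 of the endothelial and blood list, and 1 and 4 of the mesenchyme, adipose and kidney list in replicates 1 and 2. The part of these cells in the enzyme ratios was not tested.

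The size of several ratios rests on the deposited fold column. Floor genes made up 45.2% of all listed genes in replicate 1 and 10.4% in replicate 2. Among the enzyme genes they were 3 of 8 in replicate 1 (ugt5d1, cyp2p8 and sult1st4, all above 1) and 1 of 17 in replicate 2 (cyp19a1a). In replicate 1, cyp17a2 and cyp2k22 each had folds 2.08 times apart, where the authors' deposited table put the uncorrected ratio at 232 and 293, and 106 of the 1206 genes above 1 shared a factor between 2 and 2.2. In replicate 2, cyp2aa3, cyp2k22 and CYP46A1 had folds 1.63, 1.69 and 1.72 times apart, among 49 of the 890 genes below 1 with a factor over 1.5 and under 10. For the 3 genes below 1 in replicate 1 the folds differed by at most 1.02 times.

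**Figure D4:**
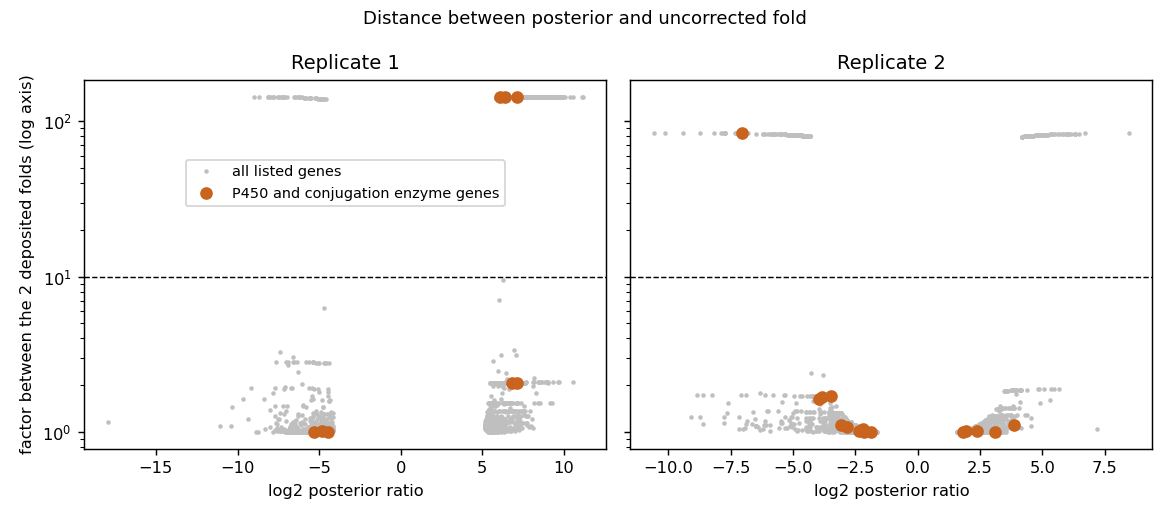
Factor between the deposited posterior and uncorrected folds (vertical, log axis) against the log2 posterior ratio (horizontal) for all listed genes (grey) and the enzyme genes (orange), with replicate 1 on the left and replicate 2 on the right. The dashed line marks the factor of 10 above which a gene is called a floor gene; 3 enzyme genes lie above it in replicate 1 and 1, cyp19a1a, in replicate 2.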

How the data were processed

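RNA was measured in 4 TruSeq libraries, 1 CAC and 1 non-CAC library in each of 2 replicates. Per the file headers, the authors deposited posterior probabilities between 0 and 1 and 2 folds as linear ratios for genes called different. The submitters' processing notes name RSEM, Zv9 and danRer7, without version or role. The model behind the probabilities was not given in the sources used here. Scaffold names in the loci also carry Zv9. Of 3020 gene IDs, 2048 were found in the name table.

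The members and lists were chosen with earlier results of these data known. Genes were matched by the name in the file, and list members also by the name table. Log2 of the posterior fold was used throughout, without pseudocount or minimum, since no levels are given. The sample descriptions put both libraries of a replicate in 1 table, which pairs them, and no value per library allows another check. Counts were made at 2-fold from 1 or more. Within a table there is 1 library per group and no test. Genes in both tables were fitted with limma 3.58.1 in R 4.3.3, as a test of the mean within-pair log2 ratio. The ratio itself holds the replicate as a block, and the fit has no further block term. It was run on simulated pairs of unselected genes with equal spread in both replicates. That simulation does not show how the fit behaves on called genes with unlike listed spans. Tables and figures were made with Python 3.11.15, pandas 2.3.3 and matplotlib 3.10.9. Genes named in the text were every member, the listed members of the partner lists, and 10 genes whatever their values; egg coat genes and other markers were named after their values were seen. Depth is unknown, so no interval was computed.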

Additional observations from a re-analysis of the deposited data

How the results depend on the processing

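The counts of enzyme genes in both tables (2 below 1 and 1 above 1) were the same with the uncorrected fold, without floor genes and with names also taken from the name table, which adds hsd3b1. These settings could not change the counts, so they are no measure of stability. The shared P450 genes include no floor gene, and hsd3b1 was listed in replicate 2 alone. Below the floor factor of 10, the folds of cyp17a2 and cyp2k22 still lay 2.08 times apart in replicate 1, and those of cyp2k22 1.69 times in replicate 2. The uncorrected folds of the shared P450 genes lie farther from 1 on the same side. At 4-fold from 1 or more, the count above 1 in both was 0 and that below 1 stayed at 2. At a posterior probability of equal expression under 0.001 they were 1 below and 0 above. With each table centred on its median (log2 6.02 in replicate 1 and -1.90 in replicate 2) they were 0 and 0. Because only called genes are listed, these medians follow the split of the genes around 1 and measure no offset between libraries. The centred counts here and within each replicate therefore cannot decide how stable a gene is. From 1 table alone, with the other left out, the count below 1 was 3 to 12, and the count above 1 was 5 in either.

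Within replicate 1 (3 below and 5 above 1), the probability threshold left 1 below and 3 above, centring left 2 above, and removal of floor genes left 2 above. Within replicate 2 (12 below and 5 above 1), centring left 5 below and a 4-fold threshold left 3 above. On the within-pair ratios, limma gave an adjusted p of 0.0858 to 0.464 for the 4 shared P450 genes on the posterior fold. On the uncorrected fold it gave 0.391 to 0.636. In either fit these genes had a shared standard error, so the p-values follow the mean alone. On the uncorrected fold limma called 0 of 352 genes in either direction, with 20 below and 77 above 1 at an unadjusted p under 0.05. No fit without the pairing was possible, because the tables hold no value per library. Left to 1 replicate each, a choice added after seeing the data, the log2 ratio was -5.32 to -2.36 for cyp2ad3, -4.44 to -2.18 for cyp2ad6, 1.93 to 6.80 for cyp17a2 and -3.82 to 7.14 for cyp2k22.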
